A study of Mus musculus with 2 samples.

Results

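The 9 genes described here are the prolactin family genes (Prl) and pregnancy-specific glycoprotein genes (Psg) that were measured in iHFSC2 cells, a mouse hair follicle stem cell line that has been immortalized. They were taken from a table of 22383 genes by name, as Prl followed by a digit or Psg followed by a number, and by a level of at least 20 read counts in 1 or both libraries. Of 24 rows with such names, 6 Prl genes and 3 Psg genes met the count minimum, 8 of them in both libraries and Psg27 in the empty vector library alone. The shcircSmad5 cells carry a lentiviral short hairpin aimed at circSmad5, a circular transcript of Smad5, and the control cells were infected with the empty vector. Both are stable derivatives of the same line. They were selected with puromycin from day 4 after infection and established at day 15, and each gave 1 RNA library. The control has no hairpin of another sequence, and so the loss of the target, the presence of any hairpin and the separate selection cannot be told apart. With 1 library per group there is no replicate check and no test, and every difference below is a difference between these libraries.

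In mice both gene families have expanded by duplication and are best known from the placenta, where trophoblast cells secrete their products into the mother's blood. The prolactin family descends from the pituitary hormone prolactin, which signals through its receptor Prlr to the kinase Jak2 and the transcription factor Stat5. Many placental members do not act through that receptor. Prl2c2, Prl2c3 and Prl2c5 encode proliferins, secreted glycoproteins that promote blood vessel growth and were first found in cultured mouse fibroblasts stimulated to grow. The Prl8a genes encode placental prolactin-like proteins. Psg genes encode secreted proteins with immunoglobulin domains and belong to the family of carcinoembryonic antigen-related (CEACAM) genes. Proliferin genes are also expressed outside the placenta, in immortalized mouse cell lines and in hair follicles.

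The windows before the start sites of these genes were alike among close copies and not across whole families. Over 250 bases, Psg28 and Psg18 were identical at 96.8% of positions and Psg28 and Psg27 at 83.6%. Prl8a9 and Prl8a1 were identical at 82.8%, but Prl8a9 and Prl8a6 at 58.0% and Prl8a9 and Prl2c3 at 50.4%, beside 42.0% to 49.2% for pairs of a Prl and a Psg window. The RefSeq promoter table, on GRCm38.p6, held a window for 8 of the 9 members, and Prl2c2 was the other. The stretches below end at the base before the RefSeq start and read 5′ to 3′ on the strand of the gene, with the letters of the searched motifs in capitals. The first 4 are shown because the 3 Psg members share an AP-1 motif (TGANTCA, the binding letters of the Fos and Jun factors) that the row just below the count minimum, Psg17, lacks.
Psg28 (GRCm38.p6 chr7:18432056-18432205, minus strand): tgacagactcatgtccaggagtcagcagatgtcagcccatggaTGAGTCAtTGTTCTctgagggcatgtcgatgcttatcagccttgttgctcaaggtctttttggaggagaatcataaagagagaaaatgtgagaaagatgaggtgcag
Psg18 (GRCm38.p6 chr7:18355008-18355157, minus strand): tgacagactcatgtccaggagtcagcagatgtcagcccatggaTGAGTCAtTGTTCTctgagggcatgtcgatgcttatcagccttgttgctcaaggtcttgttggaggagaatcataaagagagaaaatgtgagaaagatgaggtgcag
Psg27 (GRCm38.p6 chr7:18567306-18567455, minus strand): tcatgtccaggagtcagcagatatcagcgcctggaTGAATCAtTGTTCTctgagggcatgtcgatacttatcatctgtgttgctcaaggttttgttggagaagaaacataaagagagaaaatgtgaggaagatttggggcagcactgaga
Psg17 (GRCm38.p6 chr7:18821592-18821741, minus strand): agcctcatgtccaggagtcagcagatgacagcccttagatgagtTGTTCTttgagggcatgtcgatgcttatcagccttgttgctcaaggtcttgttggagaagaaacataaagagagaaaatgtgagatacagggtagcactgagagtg
The proliferin windows are shown at 250 bases, since the AP-1 letters of Prl2c3 lie far from its start. The windows of Prl8a9 and Prl8a1 are shown because these neighbours differ in level.
Prl2c3 (GRCm38.p6 chr13:12800080-12800329, minus strand): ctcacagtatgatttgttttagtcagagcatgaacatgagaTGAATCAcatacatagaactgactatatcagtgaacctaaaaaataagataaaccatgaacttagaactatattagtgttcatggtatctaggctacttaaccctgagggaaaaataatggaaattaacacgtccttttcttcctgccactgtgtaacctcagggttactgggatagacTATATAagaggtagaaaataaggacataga
Prl2c5 (GRCm38.p6 chr13:13182466-13182715, plus strand): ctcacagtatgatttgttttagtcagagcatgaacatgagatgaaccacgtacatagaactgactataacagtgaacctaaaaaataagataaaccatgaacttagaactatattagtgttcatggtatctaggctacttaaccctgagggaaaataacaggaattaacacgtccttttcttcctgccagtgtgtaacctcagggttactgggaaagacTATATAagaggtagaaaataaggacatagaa
Prl8a9 (GRCm38.p6 chr13:27564607-27564756, minus strand): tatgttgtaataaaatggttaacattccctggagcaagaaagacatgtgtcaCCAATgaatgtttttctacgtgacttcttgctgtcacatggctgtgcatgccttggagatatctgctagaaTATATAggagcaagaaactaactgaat
Prl8a1 (GRCm38.p6 chr13:27582172-27582321, minus strand): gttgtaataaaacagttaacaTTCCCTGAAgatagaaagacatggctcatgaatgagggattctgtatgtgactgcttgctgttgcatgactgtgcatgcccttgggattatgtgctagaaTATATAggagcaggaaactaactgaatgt

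Motifs were searched on both strands of the 250 bases before the start, in the 8 members and in all 27025 genes of the table. AP-1 letters stood in the windows of Psg28, Psg18, Psg27 and Prl2c3, and in 6.87% of all windows. In each of the 3 Psg members the AP-1 letters were followed after 1 base by TGTTCT, the letters of 1 arm of a glucocorticoid receptor element. TGTTCT alone stood in 16.2% of all windows and in 6 of the 7 other Psg windows of the table, none of which held AP-1 letters. The adjacent arrangement, which was looked for after the sequences were seen, occurred in 6 of 27025 windows, the 3 Psg members and 3 genes outside both families. The Psg28 window was identical to that of Psg18 at 96.8% and to that of Psg27 at 83.6% of positions. The 3 Psg members thus do not count as 3 independent occurrences. Of the 7 other Psg windows, 4 belong to genes with a row here, and these had at most 14 counts. Psg19 and Psg22 have a row here but no window. In the Prl family the pattern was different. AP-1 letters stood in 1 of 5 member windows and in 6 of the 16 other Prl windows. Of these 16, 7 belong to genes with a row here, and among those Prl7a1 and Prl3a1 held the letters. Prl3d1, Prl3d2, Prl3d3 and Prl7a2 also held them but have no row, so their level is not known here. Prl2c3 held TGANTCA 209 bases before its start, while Prl2c5, whose window was identical at 96.4% of 250 positions, did not hold those letters. TATATA, added after the sequences were seen, began 27 to 31 bases before the start in Prl2c3, Prl2c5, Prl8a9 and Prl8a1. It stood anywhere in the 250 bases in 5.56% of all windows, and the share at that position was not counted. The STAT letters TTCNNNGAA stood in Prl8a1 (7.18% of all windows) and the CCAAT letters in Prl8a9 (34.5%), while TATAAA (13.0%) and the ETS letters CCGGAA (12.2%) stood in none of the 8. These are matches of letters in a short window and say nothing of whether a factor binds.

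Prl and Psg genes were much lower in the shcircSmad5 library than in the empty vector library. Summed over all 15 Prl rows of the table, there were 827 counts in the shcircSmad5 library, against 6474 in the empty vector library. Scaled by TMM, a method that sets the libraries to a common level by their bulk of genes, the sum was 7.99-fold lower in the shcircSmad5 library. Its 95% counting interval was 7.43 to 8.60, an exact Clopper-Pearson interval that covers counting error only. The 9 Psg rows summed to 78 counts in the shcircSmad5 library, against 744 in the empty vector library, 9.74-fold lower (7.70 to 12.5). The Prl rows lie on chromosome 13 and the Psg rows on chromosome 7, and the intervals of the summed folds overlap. Of the 9 members, 8 were lower by a size rule that asks for at least 20 counts, a ratio of at least 2-fold and a counting interval that excludes 1, and none was higher. By the same rule 6.24% of all 13596 genes with at least 20 counts were lower and 8.43% were higher, and of the protein-coding genes among them 6.38% were lower and 4.61% higher. Since the members were chosen by their counts in these same libraries, that comparison is a description. The median log2 ratio was -2.26 over the 6 Prl members and -3.14 over the 3 Psg members, beside -0.02 over all measured genes.

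**Figure D1:**
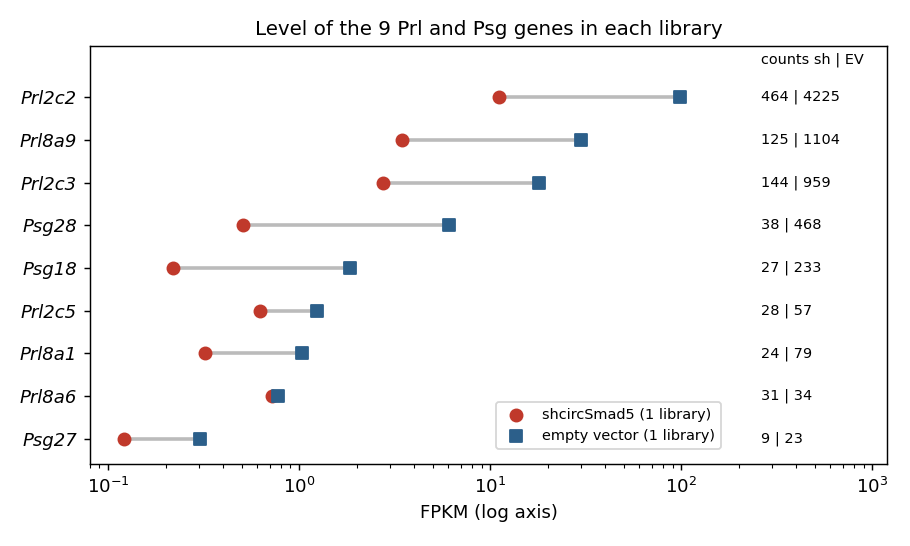
FPKM (counts scaled by exon length and library total, log axis) of the 9 members, with circles for the shcircSmad5 library and squares for the empty vector library, and the read counts at the right. Prl2c2 is the highest in both libraries, at 11.1 and 98.7 FPKM, and the symbols of Prl8a6 nearly coincide at 0.718 and 0.770 FPKM.

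The counts and ranks of the proliferin genes rest on how reads were divided among them, which is uncertain. Prl2c2, the proliferin gene with the most counts, was the most abundant member as counted. It had 464 counts in the shcircSmad5 library, against 4225 in the empty vector library (ENSMUSG00000079092, GRCm38 chromosome 13, 12996125 to 13005383, minus strand). The level was 11.1 FPKM in the shcircSmad5 library, where the gene ranked 4445 of 22383 by FPKM, and 98.7 FPKM in the empty vector library, where it ranked 359. The ratio was 9.30-fold lower in the shcircSmad5 library (95% counting interval 8.44 to 10.3). Among 2446 other protein-coding genes with as many counts in the empty vector library, 2 had a ratio as low. Prl2c3, another proliferin gene, had 144 counts in the shcircSmad5 library, against 959 in the empty vector library, and was 6.80-fold lower (5.70 to 8.16). Its level was 2.76 FPKM in the shcircSmad5 library and 18.0 FPKM in the empty vector library. Prl2c5, the weakest of the 3 proliferin genes, had 28 and 57 counts in the shcircSmad5 and empty vector libraries and was 2.08-fold lower (1.30 to 3.39). Its ratio lay next to the 2-fold limit. It no longer passed under scaling by total counts, under upper quartile scaling or when the ratio was centred at the median of chromosome 13.

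How the reads were divided among the proliferin genes is uncertain. The coding sequences of Prl2c2 and Prl2c3 differed at 3 of 672 aligned bases, and those of Prl2c2 and Prl2c5 at 33 of 666. Of the 50-base words in the annotated transcripts of Prl2c2, 83.3% also occurred in transcripts of other genes, mostly Prl2c3. The share was 60.0% for Prl2c3 and 35.1% for Prl2c5. With words of 100 bases it was 56.9%, 44.7% and 8.68% for Prl2c2, Prl2c3 and Prl2c5. The sum of the 3 genes does not depend on how reads were divided among them, but words are also shared with Gm7040 and Prl2c1, outside the sum. It was 636 counts in the shcircSmad5 library, against 5241 in the empty vector library, 8.41-fold lower (7.75 to 9.15). Prl2c2 made up 73.0% of that sum in the shcircSmad5 library (exact binomial interval 69.3% to 76.4%) and 80.6% in the empty vector library (79.5% to 81.7%). Prl2c5 made up 4.40% in the shcircSmad5 library (2.95% to 6.30%), against 1.09% in the empty vector library (0.825% to 1.41%). The ratio of Prl2c5 was 4.47 times that of Prl2c2, with a counting interval of 2.71 to 7.23, and the ratio of Prl2c3 was 1.37 times that of Prl2c2 (1.11 to 1.67).

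The Prl8a genes are distinct enough that reads tell them apart, and they differed among themselves. Prl8a9, a placental prolactin-like gene, was the second most abundant member (ENSMUSG00000006490, chromosome 13, 27557995 to 27564606, minus strand). It had 125 counts in the shcircSmad5 library, against 1104 in the empty vector library, or 3.46 and 29.9 FPKM. It was 9.02-fold lower in the shcircSmad5 library (7.49 to 10.9), and none of its 50-base words occurred in another gene's transcripts. The ratio of Prl8a9 was 1.03 times that of Prl2c2 (0.830 to 1.27), and the proliferin genes lie 13.9 Mb from the main Prl cluster that holds Prl8a9. Prl8a1, separated from Prl8a9 by 9.32 kb, had 24 counts in the shcircSmad5 library and 79 in the empty vector library and was 3.36-fold lower (2.11 to 5.55). Of its 50-base words 8.79% occurred in other genes. Prl8a6, 119 kb from Prl8a9 on the other side, was the member that did not pass the size rule. It had 31 counts in the shcircSmad5 library and 34 in the empty vector library, a log2 ratio of -0.16 (-0.91 to 0.58), and shared no 50-base word with another gene. The ratio of Prl8a6 was 8.03 times that of Prl8a9 (4.60 to 14.0), a gap wider than counting error. In the shcircSmad5 library Prl8a9 made up 68.3% of the Prl8a counts and Prl8a6 16.9%. In the empty vector library the shares were 90.7% and 2.79%. The coding sequences of Prl8a9 and Prl8a6 were identical at 80.8% of aligned bases.

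Among the Psg genes, Psg28 was the highest and had the lowest ratio of all members. It had 38 counts in the shcircSmad5 library, against 468 in the empty vector library (ENSMUSG00000030373, chromosome 7, 18422536 to 18432041, minus strand). That is 0.508 and 6.12 FPKM, 12.6-fold lower in the shcircSmad5 library (9.03 to 18.0). Psg18, 67.5 kb away, had 27 counts in the shcircSmad5 library, against 233 in the empty vector library, and was 8.81-fold lower (5.90 to 13.7). The ratio of Psg18 was 1.43 times that of Psg28, and the interval of 0.816 to 2.47 includes equality. Psg27 had 9 counts in the shcircSmad5 library, against 23 in the empty vector library, and was 2.61-fold lower (1.16 to 6.41). It met the count minimum through the empty vector library alone, so a lower count in the shcircSmad5 library was built into its choice. The coding sequences of Psg28 and Psg18 were identical at 94.6% of aligned bases, and 31.5% of the 50-base words of Psg28 occurred in other genes, first of all Psg26. For Psg18 and Psg27 the shares were 11.5% and 10.9%. The ratios of Psg28 and Psg18 were 0.739 and 1.06 times that of Prl2c2, with intervals of 0.510 to 1.05 and 0.673 to 1.60, which include equality.

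**Figure D2:**
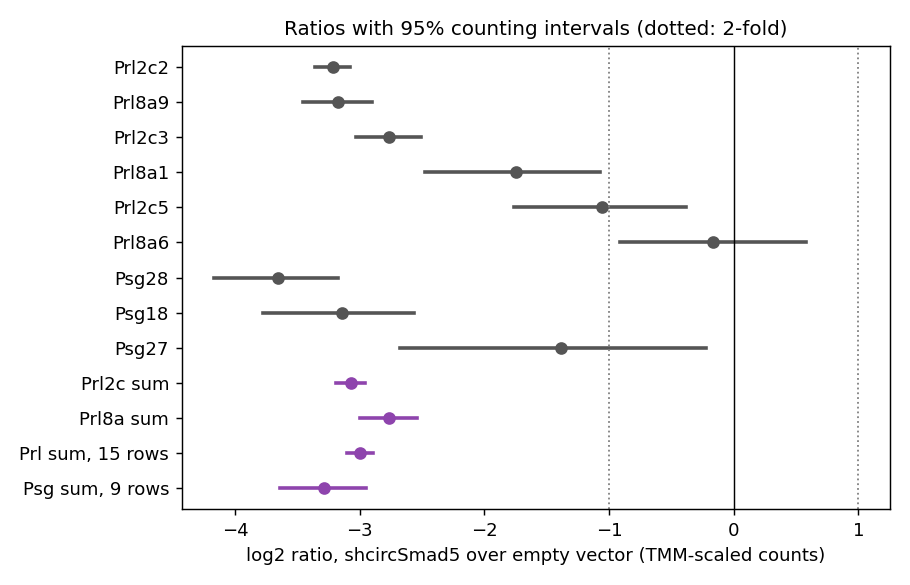
Log2 ratio of TMM-scaled counts, shcircSmad5 over empty vector, for each member (grey) and for sums over subfamilies and families (purple), with bars for the 95% counting interval and dotted lines at 2-fold. Prl2c2, Prl8a9, Prl2c3, Psg28 and Psg18 lie between -3.65 and -2.77, and the bar of Prl8a6 crosses 0.

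The 5 members with the most counts in the empty vector library were 6.80-fold to 12.6-fold lower in the shcircSmad5 library. The 4 with the fewest there were 1.12-fold to 3.36-fold lower. The empty vector counts also enter the ratio, so this link is partly built in. By counts in the shcircSmad5 library, Prl8a6 (31) and Prl2c5 (28) stood above Psg18 (27). In the shcircSmad5 library the 6 lowest members had 9 to 38 counts, which leaves their order there imprecise. By FPKM the order in the shcircSmad5 library was Prl2c2, Prl8a9, Prl2c3, Prl8a6, Prl2c5, Psg28, Prl8a1, Psg18 and Psg27. In the empty vector library it was Prl2c2, Prl8a9, Prl2c3, Psg28, Psg18, Prl2c5, Prl8a1, Prl8a6 and Psg27. Prl8a6 thus stood at the fourth place in the shcircSmad5 library, against the eighth in the empty vector library.

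**Figure D3:**
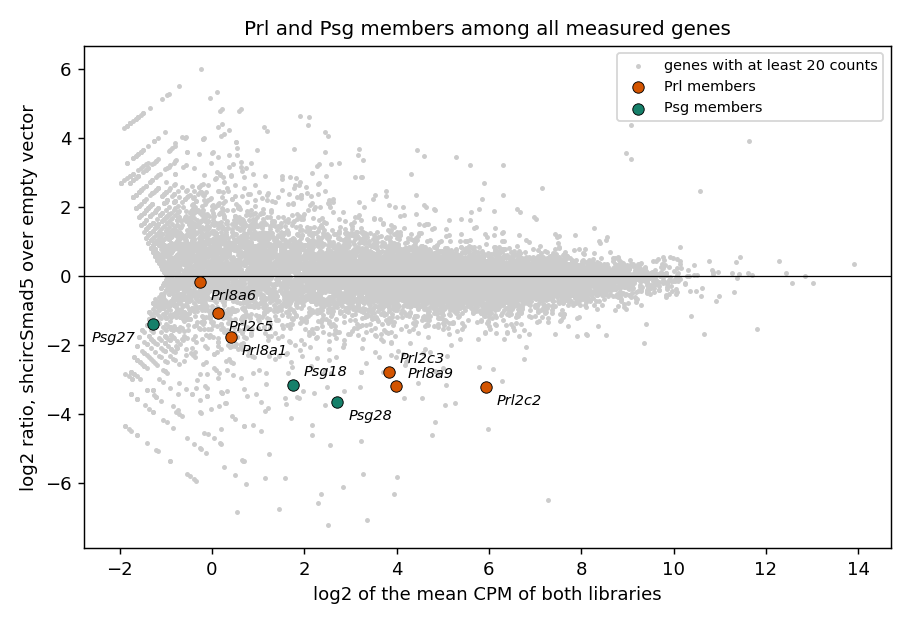
Log2 ratio, shcircSmad5 over empty vector, against the log2 of the mean CPM of both libraries, for all 13596 genes with at least 20 counts (grey, with a count of 0 set to 3) and the Prl (orange) and Psg (green) members. Prl2c2 lies at the lower edge of the genes of its level, while Prl8a6 lies among the bulk near 0.

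The other 15 rows of both families were close to the detection limit. Among the 9 Prl rows under the minimum, the counts summed to 11 in the shcircSmad5 library and 16 in the empty vector library, and no row exceeded 6. Prl7d1, which encodes the anti-angiogenic proliferin-related protein, had 2 counts in the shcircSmad5 library and 6 in the empty vector library, and Prl7a1 had 0 and 6. Prl8a2, the decidual prolactin-related gene, and Prl6a1 each had 3 counts in the shcircSmad5 library and 0 in the empty vector library, and Prl3a1 had 2 and 0. Prl2a1 had 0 counts in the shcircSmad5 library and 2 in the empty vector library, Prl7c1 had 0 and 1, and Prl7b1 had 1 and 1. Among the 6 Psg rows under the minimum, Psg17, whose product binds the tetraspanin Cd9, had 4 counts in the shcircSmad5 library and 14 in the empty vector library. Psg19 had 0 and 5, and Psg20 0 and 1. Prl2b1, Psg22, Psg25 and Psg29 were at 0 in both libraries, and a count of 0 allows up to 3 counts. The values nearest the minimum were thus the 23 counts of Psg27 inside and the 14 of Psg17 outside. A further 14 annotated Prl and Psg genes were not analysed here.

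The members lie in 3 places of the genome, and their neighbours differed between them. The proliferin genes span 12790816 to 13191923 on chromosome 13, apart from the main Prl cluster at 27057570 to 28151611. Within 1 Mb of the proliferin genes, 8 of 18 measured genes outside the family were lower in the shcircSmad5 library and none was higher, with a median log2 ratio of -0.58. Of these 8, 5 reached 20 counts in the empty vector library alone, so a lower count was built into their being measured, and Gpr137b-ps, Gpr137b and Lyst reached it in both. Over the whole of chromosome 13 the median was -0.21, with 64 of 556 genes lower, members included. Inside the locus the processed pseudogene Gm48527 had 0 counts in the shcircSmad5 library and 23 in the empty vector library. With the floor of 3 counts in place of 0 it was 7.83-fold lower, and its counting interval began at 5.87-fold. The noncoding gene Gm48544 had 10 and 29 counts, and Gm10811 15 and 39. The nearest measured genes outside were the pseudogene Gpr137b-ps, with 1378 counts in the shcircSmad5 library and 4795 in the empty vector library (3.55-fold lower), and the pseudogene Gm18562 (15 and 30 counts). Further genes there, named after their values were seen, were the lysosomal membrane protein gene Gpr137b (2.29-fold lower), the lysosomal trafficking regulator Lyst (2.61-fold lower) and the ectodysplasin receptor adaptor Edaradd. Edaradd had 5 counts in the shcircSmad5 library and 71 in the empty vector library, 14.5-fold lower (5.93 to 46.0). Gpr137b-ps is annotated as an unprocessed pseudogene, and reads shared with Gpr137b would make both values uncertain.

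Around the main Prl cluster few genes were measured. None outside the family had 20 counts within its span, and of 4 within 1 Mb, 1 was lower, the noncoding gene 2610307P16Rik, with 9 counts in the shcircSmad5 library and 22 in the empty vector library, which alone brought it past the minimum. Its nearest measured neighbours, Rps18-ps5 (22 and 25 counts) and Gm11353 (38 and 38), did not pass the rule. Around the Psg cluster (17074040 to 18821607 on chromosome 7), 1 of 63 measured genes outside the family was lower and 6 were higher. The lower one was Mill1, an MHC class I-like gene 79.3 kb from Psg18, with 292 counts in the shcircSmad5 library, against 2011 in the empty vector library, 7.03-fold lower (6.22 to 7.98). Of the 6 higher genes, 5 reached 20 counts in the shcircSmad5 library alone, so a higher count was built into their being measured. Among these 5 were Hif3a and Mill2, which lie 11.6 and 18.4 kb from the ends of the cluster, and Dact3. Hif3a, a hypoxia-inducible factor subunit, had 54 and 6 counts in the shcircSmad5 and empty vector libraries, and Mill2, a relative of Mill1, had 45 and 16. Dact3, a Wnt regulator, had 24 and 7. Mill1 lies on the side of Psg18 away from Psg28, and Psg25, at 0 counts in both libraries, lies between Psg28 and Psg27. The other measured gene inside it, the antisense gene Gm44613, had 362 and 463 counts and did not pass. The median log2 ratio of the 61 measured genes within 1 Mb outside the cluster was -0.09.

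**Figure D4:**
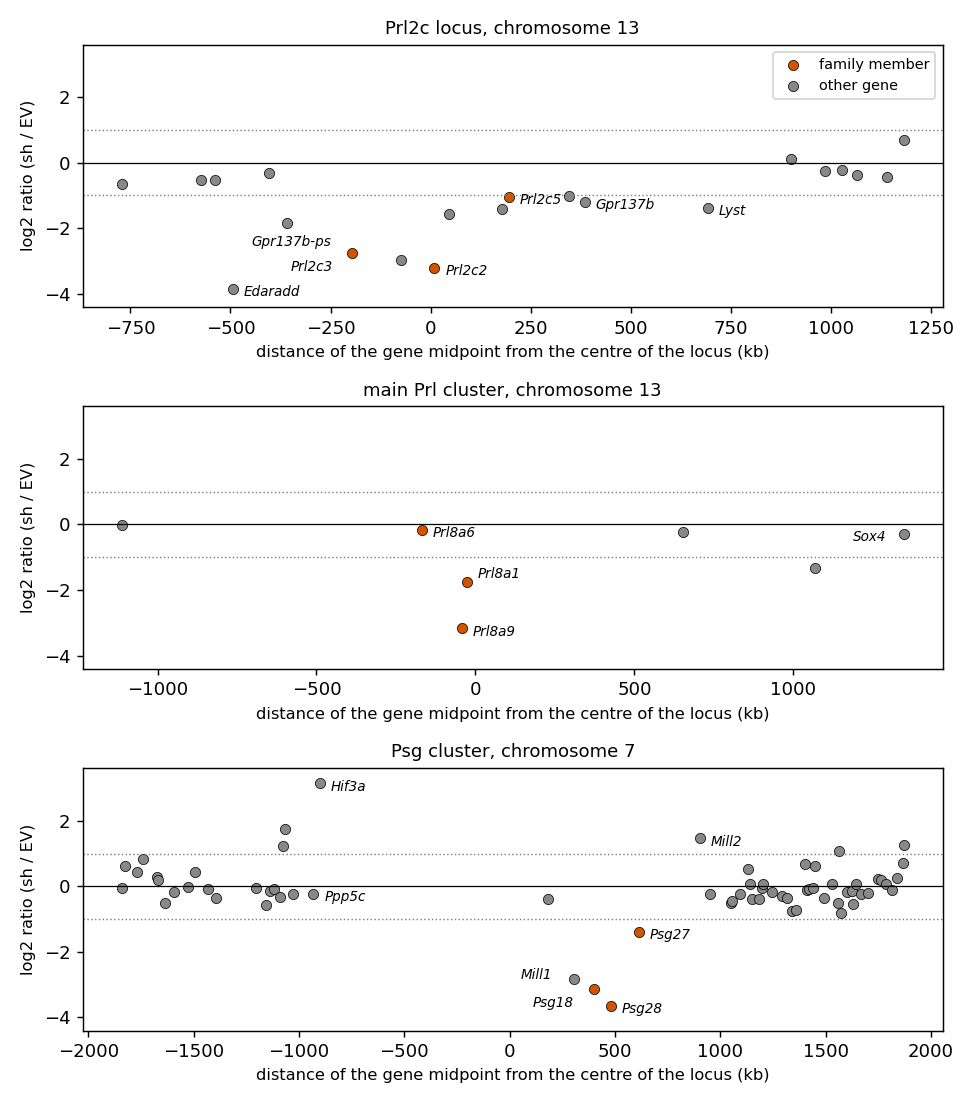
Log2 ratio, shcircSmad5 over empty vector, of each measured gene against the distance in kb of its midpoint from the centre of the proliferin locus (top), the main Prl cluster (middle) and the Psg cluster (bottom), with family members in orange, other genes in grey and dotted lines at 2-fold. In the bottom panel Mill1 at -2.81 lies with Psg18 and Psg28, and most genes outside the cluster lie near 0.

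Of the genes that a prolactin signal would use, the kinase and STAT genes were measured while the receptor was near the detection limit. Prlr had 4 counts in each library, and prolactin itself had 0 counts in the shcircSmad5 library and 3 in the empty vector library. Jak2, the kinase bound to the receptor, had 2359 counts in the shcircSmad5 library and 2228 in the empty vector library, a log2 ratio of 0.05. Stat5a and Stat5b had log2 ratios of 0.43 and -0.12, and none of these 3 genes passed the size rule. Of 9 measured STAT5 feedback and target genes, Socs2, a feedback inhibitor of cytokine receptors, was 3.64-fold higher, with 3004 counts in the shcircSmad5 library and 809 in the empty vector library. No other gene of that list passed under TMM, while scaling by total counts called 2 higher. Of 11 genes for reported binding partners of proliferins and PSG proteins, Lgals1 was lower and none was higher. Lgals1, which encodes the lectin galectin-1, had 222 counts in the shcircSmad5 library, against 4641 in the empty vector library, 21.3-fold lower. Igf2r, the mannose 6-phosphate receptor that binds proliferin, had a log2 ratio of -0.16, and Cd9 one of -0.02.

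Of 22 placental trophoblast markers, 8 had a row and 2 were measured. Most of those with a row were near or under the detection limit in both libraries. The level of the markers without a row is not known here. Phlda2, an imprinted growth-restraining gene, had 11 counts in the shcircSmad5 library and 38 in the empty vector library, 3.53-fold lower, and the syncytin gene Syna had 27 and 16. Ascl2, under the count minimum, went the other way from Phlda2, with 12 counts in the shcircSmad5 library and 1 in the empty vector library. The placental markers with a row summed to 64 counts in the shcircSmad5 library and 67 in the empty vector library. Plac1, Rhox6 and Ctsm were at 0 in both. Of 9 trophoblast stem cell markers, 4 were measured. Eomes, a T-box factor of trophoblast stem cells, was 2.84-fold lower with 41 and 114 counts in the shcircSmad5 and empty vector libraries. The other 3, which keratinocytes also express, were Tead4, Tfap2c and Gata3, with log2 ratios of 0.11, -0.35 and -0.34. Of 15 CEACAM genes, the relatives of the Psg family, 2 had a row, and Ceacam19 was 2.89-fold lower on 12 and 34 counts. Ceacam19 and Phlda2 reached the minimum in the empty vector library alone. Of 8 anterior pituitary markers, 1 had a row and was measured, Pitx1, also a factor of surface epithelia (log2 ratio -0.20). The level of the other pituitary markers is not known here.

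The basal keratinocyte genes Krt5 and Krt14 had 2664 and 3359 FPKM in the shcircSmad5 library and 2394 and 2361 FPKM in the empty vector library, so the keratins of basal keratinocytes were abundant in both. The bulge marker Cd34 was at 0 in both libraries, and Krt15, also of the bulge, was 3.27-fold lower, 1 of 9 measured genes of that list to pass the rule. Of 10 markers of other skin cells, 4 were measured and 2 were lower, Pdgfra of fibroblasts (62 and 161 counts in the shcircSmad5 and empty vector libraries) and Pecam1 of endothelium (27 and 81). That list summed to 13.9 CPM in the shcircSmad5 library and 28.7 in the empty vector library. Mitf made up most of both sums, at 10.9 and 21.6 CPM, and did not pass the rule. Pmel had 30 and 24 counts in the shcircSmad5 and empty vector libraries and did not pass either. Col1a1 and Cdh5 were at 0 in both. The part of these markers in the Prl and Psg values was not tested. In such bulk RNA, fewer cells that express a gene and less RNA per cell cannot be told apart.

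AP-1 and glucocorticoid receptor genes were set beside the members because the proliferin promoter is a classical target of both. Of 10 measured genes, 2 were lower and none was higher, beside 6.24% lower and 8.43% higher over all measured genes. The median log2 ratio of the 10 was -0.41. Jund had 3393 counts in the shcircSmad5 library and 7581 in the empty vector library (2.28-fold lower), and Jun had 2219 and 4548 (2.09-fold lower). The other 8 did not pass the rule. Among them were Nr3c1, which encodes the glucocorticoid receptor (log2 ratio 0.29), Fkbp5 (0.60), Tsc22d3 (0.22), Fosl1 (0.31) and Fosb (-0.73). The Fos and Jun genes other than Fosl1 had negative log2 ratios, and the median pools them with the positive ones. Whether these levels bear on the Prl and Psg genes was not tested.

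The hairpin itself had no close match among the members. Its target is TCCAGCAGAGGACTTGCACTA, and the best ungapped alignment to any member transcript matched 14 of its 21 bases, in Psg28 and Psg18. If the loaded strand is the reverse complement of the target, bases 2 to 8 of it pair with TTGCACT. Psg28 and Psg27 each held those letters 1 time in the transcript, outside the 3' untranslated region. Of measured protein-coding genes, 19.7% held them anywhere in the transcript. The letters stood in the 3' untranslated region of none of the 9 members, against 12.8% of measured protein-coding genes. The median log2 ratio of those genes was -0.06, near the -0.05 of genes without the letters there. Whether the hairpin acts on any member was not tested. Smad5, the host gene of the circular RNA, lies 28.6 Mb beyond the main Prl cluster on chromosome 13. It had 3413 counts in the shcircSmad5 library and 3109 in the empty vector library, a log2 ratio of 0.10 (0.03 to 0.18). Counts per gene hold linear and circular transcripts alike and are no measure of the knockdown.

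The protein-coding genes outside both families whose pair of levels lay closest to that of Prl2c2 were Tnc, Gpx2 and Kif5c, by distance in log2(CPM + 0.1) over the 2 libraries. Tnc, the matrix protein tenascin C, had 15.3 CPM in the shcircSmad5 library and 94.2 in the empty vector library, and Prl2c2 had 11.8 and 110. Gpx2, a glutathione peroxidase, had 18.1 and 118 CPM, and Kif5c, a kinesin, 17.1 and 139 CPM. Likeness over 2 libraries is a likeness of level and ratio alone.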

How the data were processed

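Per the labels' protocols, ribosomal RNA was removed from 3 µg of total RNA per library and a directional kit was used. The submitters' processing notes name HISAT2, HTSeq 0.13.5 and, with no role, both GRCm38 and GRCh38. Not given in the sources used here are the strand setting and the handling of multiply mapped reads. Per gene, the authors deposited read counts and FPKM values, per the file headers, and the counts were not normalized. The gene length implied by each count and deposited FPKM was whole within 0.001 bases for 100% of genes above 0, and equalled the exon length of GENCODE M21 (GRCm38) for 98.3% and 98.2% of genes in the shcircSmad5 and empty vector libraries and for all 9 members. No exonic base of a member lies in an exon of another annotated gene. Coordinates are those of M21. Columns were matched by name, and 0 were left out.

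Total counts were 38382081 in the shcircSmad5 library and 39261010 in the empty vector library. CPM and ratios used TMM in edgeR 4.0.16 (R 4.3.3), and alternatives used totals, DESeq2 1.42.0 size factors and upper quartiles. Where a library had 0 counts, 3 counts stood in as the floor. Ratios between members carry exact conditional intervals of the odds ratio at 95%. The labels name no molecular identifiers, so reads may repeat molecules and intervals cover counting error only. The size rule was tested on simulated data with counting error alone. The simulation held no variation between cultures or selections, so it does not show how the rule performs against that variation.

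The members and the gene lists were chosen with earlier results of these data known. Named are all members, family rows with 1 or more counts, Smad5, and from each list the most highly counted genes past the rule (up to 4), or up to 3 where none passes. Neighbours are the nearest gene on each side and up to 4 past the rule. Prlr, Prl, Jak2, Stat5a, Stat5b, Igf2r, Cd9, Nr3c1, Fosl1, Fosb, Krt5, Krt14, and list genes named at 0 or as not passing beyond the rule were added after their values were seen. The counts of genes past the rule in the list of prolactin receptor, kinase and STAT genes are not reported here.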

Additional observations from a re-analysis of the deposited data

How the results depend on the processing

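No paired analysis was possible because each group has 1 library, and no replicate could be left out. Under the other scalings the median log2 ratio of all measured genes moved to 0.05 at most. The 8 lower members kept the sign of their ratio under every scaling and FPKM setting run, while that of Prl8a6, which did not pass, was -0.16 and turned to 0.04 with the chromosome centred. Of 36 member ratios under other scalings or centred at their chromosome's median, 35 stayed within the counting interval, and of 18 on the log2(FPKM + 0.1) or log2(FPKM + 1) scale, 11 did. A pseudocount of 1 shrank the ratios of weak members most, giving -2.24 for Psg28, -1.22 for Psg18, -0.62 for Prl8a1 and -0.22 for Psg27. The 5 lower Prl members became 3 with a minimum of 100 counts and 3 with the proliferin genes summed to 1 gene. They became 4 with total counts, upper quartiles, the chromosome centred or a limit of 3-fold. The 3 lower Psg members became 2 with a minimum of 100 counts or a limit of 3-fold. The log2 ratio of the Prl sum was -3.00, and -2.79 with the chromosome centred and -2.66 without Prl2c2. That of the proliferin sum was -3.07, and -2.87 centred and -2.59 without Prl2c2. That of the Psg sum was -3.28, and -2.82 without Psg28. By total counts, 2 STAT5 target genes and 1 basal keratinocyte gene were higher. With a minimum of 100 counts, 0 CEACAM genes, 0 placental markers and 1 marker of other skin cells were lower, since fewer genes were counted. The depth limits the weak members, such as Psg27 with 9 counts in the shcircSmad5 library.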
